A study of Homo sapiens with 4 samples.

Results

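The 10 genes described here are the messenger RNAs of YAP and TAZ, of a pair of their DNA-binding partners, of the LATS kinases and of 4 genes that YAP switches on directly: YAP1, WWTR1, TEAD1, TEAD4, LATS1, LATS2, CCN1, CCN2, AMOTL2 and ANKRD1. They were chosen by name, as members of this pathway, and each symbol matched 1 of the 63568 gene identifiers in the count files. RNA-Seq libraries came from HGC-27, an established human gastric carcinoma cell line, 2 for control shRNA and 2 for USP47 shRNA, numbered 1 and 2 in each group. Both groups were infected with lentivirus and selected for stable conversion with puromycin, so the control cells also carry a vector, with a scrambled hairpin in place of one against USP47. USP47 encodes a deubiquitinase, an enzyme that removes ubiquitin from other proteins. The cells were infected populations and not single clones as far as the methods say, and whether both knockdown libraries carry the same hairpin is not stated. Since the RNA is bulk, fewer cells that express a gene and less of its RNA per cell cannot be told apart.

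YAP and TAZ (the product of WWTR1) are co-activators without a DNA-binding domain of their own, and they act on genes mainly through the TEAD transcription factors. In the Hippo pathway the kinases MST1 and MST2 activate LATS1 and LATS2, which phosphorylate YAP and TAZ and so keep them out of the nucleus or mark them for degradation. Because this control acts on the proteins, RNA levels of YAP1 or WWTR1 say little about their activity, and the RNA of target genes is commonly used as a readout. Several targets, among them LATS2 and AMOTL2, encode inhibitors of YAP and form a negative feedback.

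TEAD factors bind the letters GGAATG or, on the other strand, CATTCC. In RefSeq promoter windows of GRCh38.p14 (250 bases before to 50 after a gene start), 7 of the 10 members matched with 10 windows, and 5 of these 10 windows hold the letters on either strand, beside 14% of all 35116 windows. CCN2 has 3 matches, their first bases lying 169, 104 and 95 bases before the start, and 0.128% of all windows hold 3 or more. ANKRD1 has 2 matches, at 220 and 128 bases before the start. AMOTL2 has 1 match, 69 bases before the start in 1 of its 2 windows, and YAP1 has 1 at 162 bases before. The match of LATS2 begins 9 bases after the first transcribed base, and the 2 windows of WWTR1 and the 2 of LATS1 hold none. CCN1, TEAD1 and TEAD4 had no entry. The 250 bases before the start of the 3 direct targets with matches are shown because these genes are defined by TEAD-dependent activation. All 3 are read from the minus strand, 5′ to 3′, with the letters GGAATG or CATTCC in capitals, and such a match is a description of letters and not of binding.
CCN2 promoter, chr6:131951373-131951622: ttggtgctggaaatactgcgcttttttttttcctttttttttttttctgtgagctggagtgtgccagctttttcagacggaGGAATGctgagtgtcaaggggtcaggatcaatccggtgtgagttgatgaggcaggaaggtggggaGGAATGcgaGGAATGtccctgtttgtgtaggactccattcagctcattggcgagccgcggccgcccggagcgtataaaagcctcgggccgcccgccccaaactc
ANKRD1 promoter, chr10:90921088-90921337: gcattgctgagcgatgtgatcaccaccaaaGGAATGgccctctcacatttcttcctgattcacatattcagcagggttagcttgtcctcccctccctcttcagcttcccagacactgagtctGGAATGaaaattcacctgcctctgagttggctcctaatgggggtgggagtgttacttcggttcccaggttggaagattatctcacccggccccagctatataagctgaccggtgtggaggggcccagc
AMOTL2 promoter, chr3:134374448-134374697: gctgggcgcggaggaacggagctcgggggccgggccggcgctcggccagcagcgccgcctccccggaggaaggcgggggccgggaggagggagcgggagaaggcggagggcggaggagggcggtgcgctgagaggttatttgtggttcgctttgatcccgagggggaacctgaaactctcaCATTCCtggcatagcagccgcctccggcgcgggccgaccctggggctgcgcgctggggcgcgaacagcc

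Total counts on genes lay between 15649899 and 20140273 per library. USP47 itself was at 80.0 and 66.1 CPM (counts scaled to library size after TMM normalization) in the control libraries and at 36.0 and 21.5 CPM in the knockdown libraries. Its log2 fold change was -1.34 (SE 0.21, adjusted p = 0.00362). Throughout, log2 fold changes give USP47 shRNA against control shRNA, and adjusted p-values are those of the edgeR quasi-likelihood fit, corrected by the Benjamini-Hochberg procedure across 21932 genes left after low counts were filtered out, a call meaning an adjusted p under 0.05. The series' design text speaks of biological duplicates. The methods speak of triplicate extractions and, for all experiments, of 3 independent biological replicates. Here 2 libraries per group were analysed, and neither source says of these libraries whether cultures were separate. The design text, which also covers another assay, mentions a DMSO vehicle that the labels of these libraries do not. P-values measure the spread between these libraries only. Most markers of gastric epithelium were low or absent in every library. EPCAM, KRT8 and CDH1 had between 3 and 28 counts, KRT18 at most 1, and the 8 epithelial markers summed to between 19.8 and 26.7 CPM, of which MUC1 made 14.8 to 22.6. EPCAM was called lower (log2 fold change -1.84, adjusted p = 0.0416), with 3 counts in each knockdown library. The other 4 tested epithelial markers were not called and went both ways. Their log2 fold changes were 0.40 for MUC1, 0.56 for CDH1, -0.46 for KRT8 and -0.34 for CLDN4. The 4 mesenchymal markers summed to 648 and 634 CPM in control cells and 480 and 602 CPM in knockdown cells. Of these VIM had between 353 and 502 CPM and ZEB1 between 68.1 and 106 CPM, and neither was called. CDH2 had only 3 to 10 counts per library and was not tested. FN1 fell from 73.1 and 73.8 CPM to 26.2 and 32.0 CPM (log2 fold change -1.34, adjusted p = 0.000602). Summed blood markers had 1.12 to 1.43 CPM and the 2 endothelial markers found 0.118 to 0.561 CPM. The part of these markers in the results was not tested.

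Of the 10 members, AMOTL2 was the only one called. It rose, while the 2 co-activators, the 2 TEAD genes, the 2 LATS genes, CCN1 and CCN2 missed the threshold. ANKRD1 had too few counts to pass the filter of the main fit. Among the 9 tested members, 1 was called higher and 0 lower, beside 6.52% and 9.56% of all genes tested, or 16.1% in either direction. At an unadjusted p under 0.05 edgeR also gave 1 higher and 0 lower, a threshold for which the share over all genes is not given here. The DESeq2 Wald test with adjustment gave the same counts, beside 1122 higher and 1171 lower of 16533 genes with an adjusted p. The median log2 fold change of the 9 was 0.04, beside -0.01 over all genes tested. In LATS2, CCN1 and AMOTL2 both knockdown libraries lay above both controls, and in WWTR1 and TEAD1 both lay below. Over all genes tested these orders were held by 29.3% and 31.7%, so the separation of 5 members is close to that of genes in general.

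**Figure D1:**
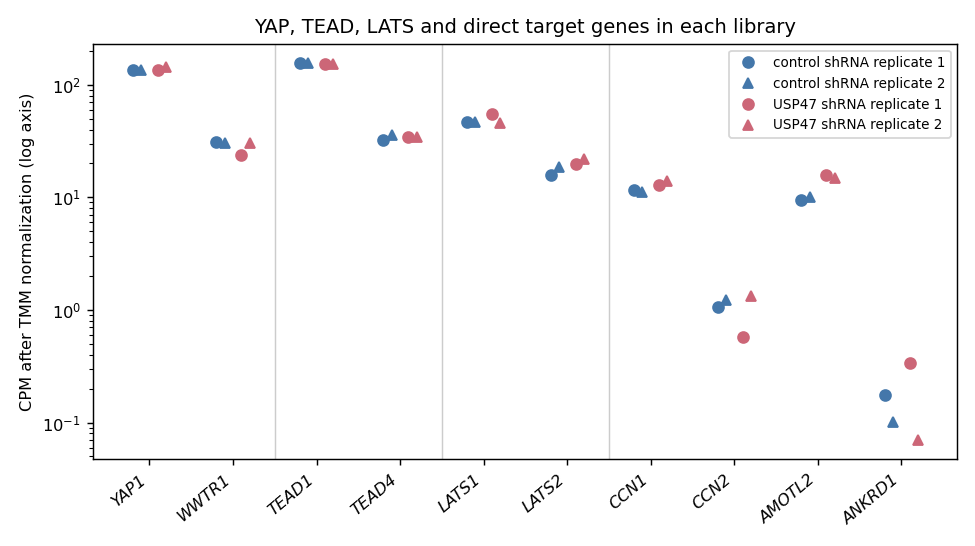
Level of each of the 10 genes in each library, as CPM after TMM normalization on a log axis. Blue is control shRNA and red USP47 shRNA, and circles and triangles are replicates 1 and 2. AMOTL2 is at 9.55 and 10.1 CPM in control cells and at 15.6 and 15.0 in knockdown cells, while YAP1, TEAD1 and TEAD4 nearly coincide.

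YAP1 encodes YAP, the main co-activator. Control replicates had 135 and 135 CPM of it, and knockdown replicates 134 and 143 CPM. The groups overlapped, the log2 fold change was 0.04 (SE 0.12, adjusted p = 0.848), and its 95% interval ran from -0.23 to 0.32, that is from 15.0% lower to 24.7% higher. The value rests on 2051 to 2796 counts per library. WWTR1, which encodes TAZ, was at 30.7 and 30.3 CPM with control shRNA and at 23.5 and 30.1 CPM with USP47 shRNA. Both knockdown libraries lay below both controls, but replicate 2 only just, and the log2 fold change of -0.19 (SE 0.15, adjusted p = 0.409) had an interval from -0.52 to 0.14. Without knockdown replicate 2 the log2 fold change of WWTR1 was -0.37 (adjusted p = 0.0241), and without knockdown replicate 1 it was -0.01.

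TEAD1 and TEAD4 encode DNA-binding partners of YAP and TAZ. TEAD1 was at 156 and 154 CPM in control cells and at 154 and 153 CPM in knockdown cells. Both knockdown values lay just below both controls, and the log2 fold change was -0.02 (SE 0.12, adjusted p = 0.941, 95% interval -0.29 to 0.26). For TEAD4 the control libraries had 32.4 and 36.1 CPM and the knockdown libraries 34.1 and 34.6 CPM, all between the controls. Its log2 fold change was 0.00475 (SE 0.13, adjusted p = 0.987, 95% interval -0.28 to 0.29). The remaining pair of TEAD genes belongs to the wider list of Hippo genes. TEAD2 was called lower, with 83.6 and 84.3 CPM in control cells against 55.3 and 62.1 in knockdown cells (log2 fold change -0.52, SE 0.13, adjusted p = 0.0225). The size of that fall was alike without control replicate 1 (-0.52, adjusted p = 0.259) and without control replicate 2 (-0.52, adjusted p = 0.210), but the call was lost. TEAD3 went from 27.6 and 31.6 CPM to 21.9 and 27.6 CPM, a log2 fold change of -0.26 that missed the threshold (adjusted p = 0.266). Without knockdown replicate 2 it was -0.43 and called (adjusted p = 0.00761), and without knockdown replicate 1 it was -0.09.

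Per length, TEAD2 was the most abundant of the 4 TEAD genes in every library. It took 42.6% and 41.1% of the summed TEAD TPM (a transcript level corrected for gene length and scaled to a common total per library) in control cells and 33.8% and 35.2% in knockdown cells. The shares of TEAD1 moved from 22.0% and 20.7% to 25.8% and 23.9%, and those of TEAD4 from 21.6% and 23.1% to 27.3% and 25.7%. TEAD3 held between 13.1% and 15.3% in all libraries. A share of 1 gene sets those of the others, so the larger shares of TEAD1 and TEAD4 stand beside CPM levels that overlapped or differed little between the groups. Whether the fall of TEAD2 differed from the values of TEAD1 and TEAD4 was not tested.

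**Figure D2:**
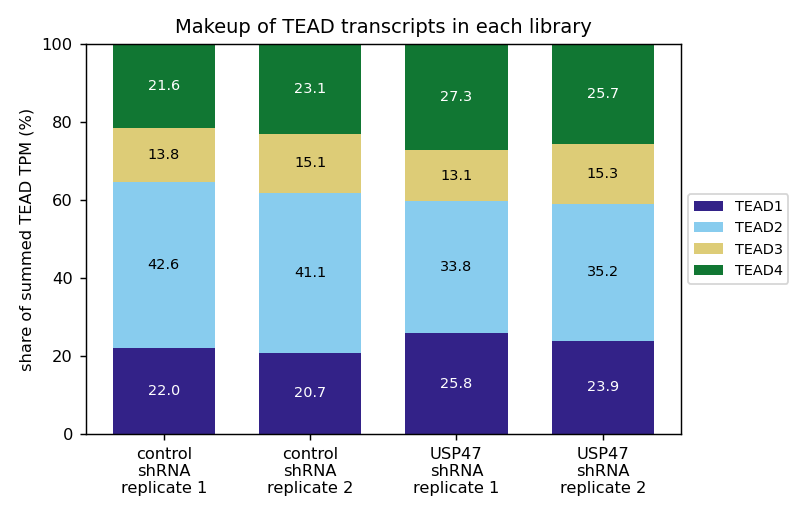
Share of each TEAD gene in the summed TPM of TEAD1, TEAD2, TEAD3 and TEAD4, in percent, for each of the 4 libraries. TEAD2 holds 42.6% and 41.1% with control shRNA and 33.8% and 35.2% with USP47 shRNA.

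LATS1 and LATS2 encode the kinases that phosphorylate YAP and TAZ. LATS1 was at 46.3 and 47.0 CPM with control shRNA and at 55.1 and 45.6 CPM with USP47 shRNA. The knockdown libraries lay on either side of the controls, and the log2 fold change was 0.11 (SE 0.14, adjusted p = 0.608, 95% interval -0.19 to 0.41). LATS2, itself a YAP target, was at 15.8 and 18.6 CPM in control cells and at 19.6 and 21.9 CPM in knockdown cells. All knockdown values were higher, by a log2 fold change of 0.27 (SE 0.15), but the interval ran from -0.06 to 0.60 and the adjusted p was 0.243. Without knockdown replicate 1 the log2 fold change of LATS2 was 0.36 (adjusted p = 0.0453). LATS2 rests on 268 to 408 counts, and the antisense transcript LATS2-AS1 that overlaps it had 4 to 18.

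Among the 4 direct targets AMOTL2 was called, CCN1 and CCN2 missed the threshold and ANKRD1 did not pass the filter on low counts. Differences between their fold changes were not tested. AMOTL2 encodes an angiomotin-like scaffold that binds YAP and holds it in the cytoplasm. Control replicates 1 and 2 gave 162 and 198 counts of AMOTL2, and knockdown replicates 1 and 2 gave 325 and 215. After normalization this came to 9.82 ± 0.383 CPM (SD, n = 2) and 15.3 ± 0.458 CPM (SD, n = 2), with knockdown libraries well above both controls. The log2 fold change was 0.64 (SE 0.15, adjusted p = 0.0180), a rise of 55.8% with a 95% interval from 24.0% to 95.8%. When only library size was used for scaling, the log2 fold change was 0.58 and the call was lost (adjusted p = 0.0514). The call was also lost without control replicate 1 (adjusted p = 0.236) and without control replicate 2 (adjusted p = 0.138), where the lone control is assumed to vary like the other libraries, with log2 fold changes of 0.60 and 0.68.

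CCN1 encodes a secreted matrix-associated protein that signals through integrins, and growth factors induce it within an hour as an immediate-early gene. Its level was 11.6 and 11.2 CPM in control cells and 12.9 and 14.1 CPM in knockdown cells. Both knockdown values were higher, and the log2 fold change of 0.24 (SE 0.15, 95% interval -0.09 to 0.57) missed the threshold with an adjusted p of 0.295. CCN2, formerly CTGF, encodes a related secreted protein that promotes matrix production. It was weakly expressed, counted 18 and 24 times with control shRNA and 12 and 19 times with USP47 shRNA, or 1.06, 1.22, 0.577 and 1.32 CPM. The lowest and the highest of the 4 values were both knockdown libraries. Its log2 fold change was -0.36 (SE 0.40, adjusted p = 0.579), and the interval from -1.25 to 0.54 leaves both a fall by 58.0% and a rise by 45.4% within reach at this depth. Without knockdown replicate 1 the log2 fold change of CCN2 was 0.21, and without knockdown replicate 2 it was -0.98 (adjusted p = 0.0992). ANKRD1, a nuclear ankyrin repeat protein known from heart muscle, was counted 3 and 2 times in control cells and 7 and 1 times in knockdown cells, so 3 of its 4 values were at or under 3 counts. In the edgeR fit without the filter on low counts the log2 fold change of ANKRD1 was 0.68 (adjusted p = 0.641). No difference in ANKRD1 was detectable at this depth.

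**Figure D3:**
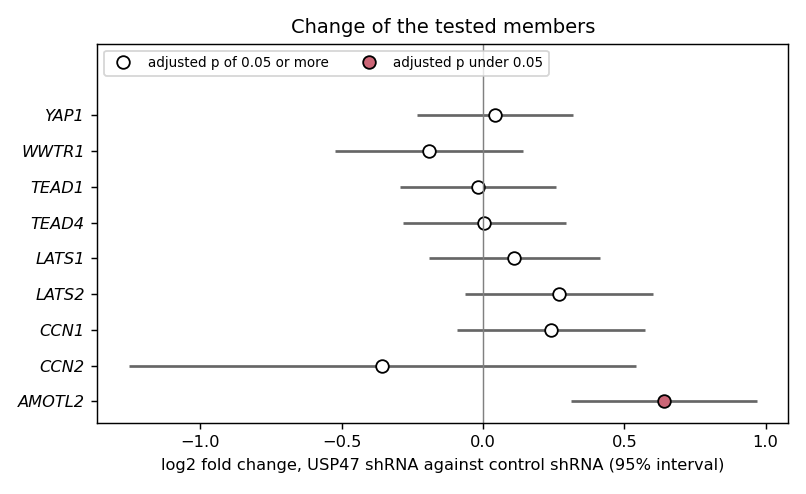
Log2 fold change of the 9 tested members, USP47 shRNA against control shRNA, with 95% intervals from edgeR. Filled points have an adjusted p under 0.05. Only the interval of AMOTL2, from 0.31 to 0.97, excludes 0, and that of CCN2, from -1.25 to 0.54, is the widest.

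Between genes, levels were compared as the deposited TPM. In control cells the order was YAP1 (29.3 ± 2.66 TPM, SD, n = 2), TEAD4 (20.6 ± 0.268), TEAD1 (19.7 ± 1.95), LATS1 (7.39 ± 0.591), CCN1 (6.38 ± 0.730), WWTR1 (4.97 ± 0.497), LATS2 (4.08 ± 0.104), AMOTL2 (2.24 ± 0.114), CCN2 (0.666 ± 0.00700) and ANKRD1 (0.0981 ± 0.0453). TEAD4 and TEAD1 did not differ beyond their spread, and the ranges of all other neighbours in that order were apart. In knockdown cells LATS2 (4.55 ± 0.571 TPM) stood before WWTR1 (3.97 ± 0.121), and the other genes kept their places in the order of means. There the ranges of LATS1 (5.73 to 9.24 TPM) and CCN1 (6.22 to 7.64 TPM) overlapped, as did those of TEAD4 and TEAD1. TPM is relative to all other transcripts of a library, and the median TPM over tested genes was 3.57 in knockdown replicate 2 and between 4.48 and 5.19 in the other 3 libraries, so TPM values were read across genes and not across libraries.

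Ratios within a library are free of that shift. YAP1 exceeded WWTR1 5.90-fold per length in control cells and 6.96-fold in knockdown cells, and its log2 was 2.55 and 2.57 with control shRNA and 2.93 and 2.67 with USP47 shRNA. The groups did not overlap, by a difference of 0.24 in the log2 ratio, but a two-sided exact permutation test of 2 against 2 libraries cannot go below p = 0.333, the value it gave (0.889 adjusted over the 4 ratios). The log2 ratio of TEAD1 to TEAD4 was 0.02 and -0.16 in control cells and -0.08 and -0.10 in knockdown cells, a difference smaller than the spread of the controls (exact p = 1). For LATS1 to LATS2 it was 0.96 and 0.75 against 0.90 and 0.47 (exact p = 0.667). For CCN1 to CCN2 it was 3.38 and 3.13 against 4.42 and 3.34, with the groups overlapping (exact p = 0.667). The exact test could call none of the 4 ratios whatever their values, so its p-values say nothing for or against a difference. Without knockdown replicate 1 the difference was 0.10 for YAP1 to WWTR1 and 0.09 for CCN1 to CCN2, and without knockdown replicate 2 it was 0.37 and 1.16.

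The other Hippo genes were taken from a list of 55, of which 50 were tested. Of these, 6 were called higher and 7 lower, 12% and 14% beside 6.52% and 9.56% of all genes, and their median log2 fold change was -0.02. In the core cassette that activates LATS, 0 of 5 genes were called in edgeR, beside 16.1% of all genes in either direction. By DESeq2 0 were called, beside 2293 of 16533 genes. At an unadjusted p under 0.05 it was also 0, with no share over all genes given here. The 5 were the MST kinases STK4 (log2 fold change 0.09) and STK3 (-0.03), their partner SAV1 (0.27, adjusted p = 0.178), and the LATS co-activators MOB1A (-0.00013) and MOB1B (-0.10). SAV1 was called higher without knockdown replicate 1 (0.35, adjusted p = 0.0138) and with a replicate block (0.26, adjusted p = 0.0384). The 3 scaffolds that bind YAP were not called either, AMOT at -0.02, AMOTL1 at -0.11 and the phosphatase PTPN14 at -0.24, and the 3 genes for the degradation of YAP and TAZ, CSNK1D, CSNK1E and BTRC, lay between -0.01 and 0.29. AMOTL2 was therefore the only angiomotin gene called, and it took 5.47% and 5.71% of the summed angiomotin TPM in control cells and 9.84% and 7.78% in knockdown cells.

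Whether calls were more frequent in some roles than in others was not tested. NF2, which encodes the membrane scaffold merlin that recruits LATS, was at 107 and 120 CPM in control cells and at 144 and 173 CPM in knockdown cells (log2 fold change 0.48, SE 0.14, adjusted p = 0.0433). Without the filter on low counts NF2 missed the threshold (adjusted p = 0.0608). WWC1, which encodes the merlin partner KIBRA, went the other way, from 48.5 and 49.3 CPM to 32.7 and 35.0 CPM (-0.53, SE 0.13, adjusted p = 0.0196). Among 10 kinases that can activate LATS or MST, 2 were called higher and 0 lower. MINK1 rose from 66.9 and 68.5 CPM to 112 and 124 CPM (0.81, SE 0.13, adjusted p = 0.00346) and TAOK2 rose by 0.50 (adjusted p = 0.0299). The other 8 were not called, among them TNIK (-0.43, adjusted p = 0.0511) and MAP4K1 (-0.80, 8 to 21 counts, adjusted p = 0.201). The median log2 fold change of the 10 was 0.12. The NDR kinases, relatives of LATS, split. STK38 was higher, with 64.7 and 57.5 CPM against 95.5 and 93.7 (log2 fold change 0.63, adjusted p = 0.0102), and STK38L was lower, with 40.6 and 35.1 CPM against 26.3 and 24.0 (-0.59, adjusted p = 0.0191). VGLL4, which competes with YAP for TEAD, was called higher near the threshold (0.49, SE 0.15, adjusted p = 0.0489), as was the polarity gene LLGL2 (0.69, adjusted p = 0.0416). With library size alone the calls of VGLL4 (adjusted p = 0.0627) and LLGL2 (adjusted p = 0.0743) were lost, and without knockdown replicate 2 both missed the threshold narrowly (adjusted p = 0.0503 and 0.0512).

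The deepest called falls of that list were those of RASSF2, DCHS1, RASSF4 and STRN4. RASSF2, a tumor suppressor that binds MST kinases, had 211 and 243 counts in control cells and 44 and 53 in knockdown cells (log2 fold change -2.14, SE 0.23, adjusted p = 0.000688). Its relative RASSF4 fell by 1.19 on the log2 scale (adjusted p = 0.00496). DCHS1, the cadherin that serves as ligand of FAT4, was at 7.96 and 8.97 CPM with control shRNA and at 2.07 and 3.27 CPM with USP47 shRNA (-1.70, SE 0.23, adjusted p = 0.00186). FAT4 itself was at 278 and 272 CPM and then at 354 and 353 CPM, a log2 fold change of 0.36 that missed the threshold (adjusted p = 0.0856). STRN4, a subunit of the phosphatase complex that counteracts MST, fell by 0.72 on the log2 scale (adjusted p = 0.00550). The count of calls in this list depended on which library was left out. Without control replicate 1 it was 0 higher and 3 lower (RASSF2, DCHS1 and RASSF4), and without control replicate 2 it was 1 higher (MINK1) and the same 3 lower, where the calls over all genes fell from 3527 to 1230 and 1415. The other calls of the list were lost in these fits, with adjusted p-values of 0.492 and 0.212 for NF2 and 0.0556 and 0.0570 for STRN4. When knockdown replicate 1 or knockdown replicate 2 was left out, the count of calls in the list rose in both directions, as it did over all genes.

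**Figure D4:**
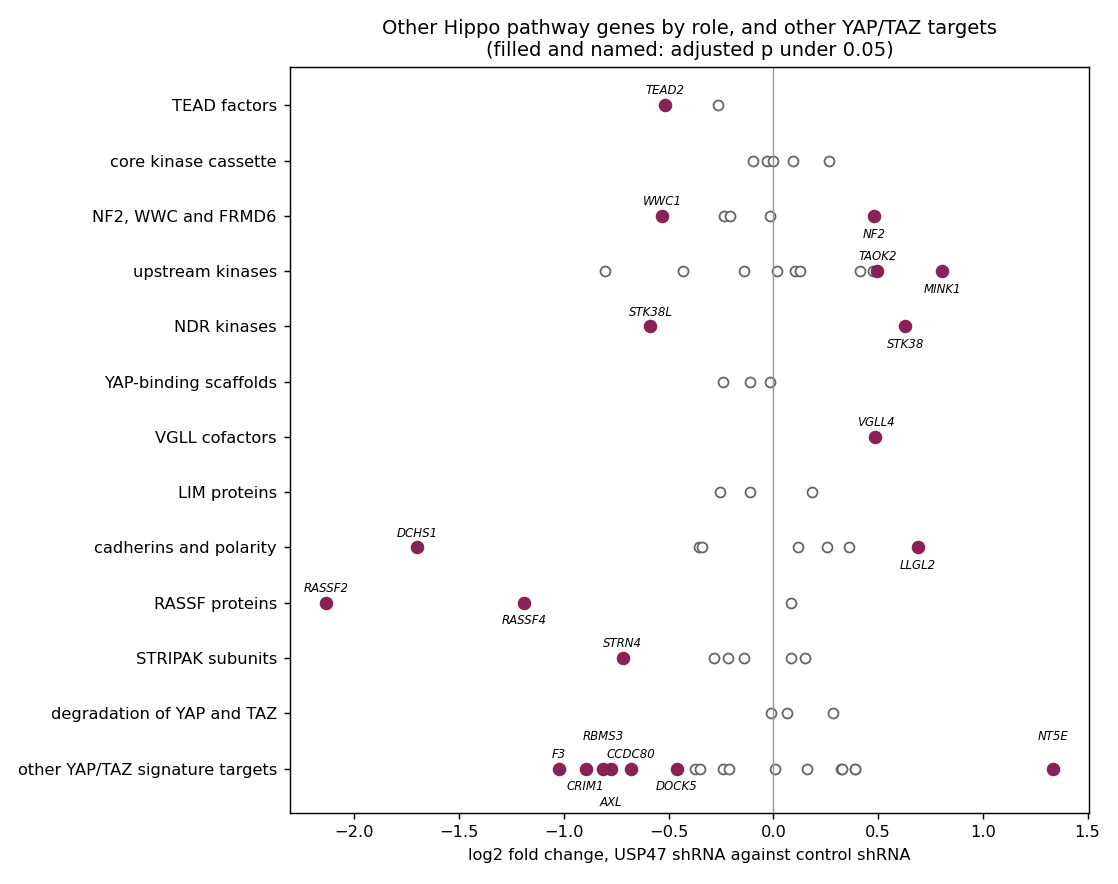
Log2 fold change, USP47 shRNA against control shRNA, of the 50 tested Hippo genes in rows by role and of 17 other YAP/TAZ target genes in the bottom row. Each point is a gene, and filled, named points have an adjusted p under 0.05. The 5 genes of the core kinase cassette lie between -0.10 and 0.27, while RASSF2 lies at -2.14 and NT5E at 1.33.

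YAP and TAZ have many targets beyond the 4 above, and 17 others were taken from a pan-cancer signature of YAP/TAZ targets as remembered, leaving out the 5 members that it holds. All 17 were tested. Of these, 6 were called lower and 1 higher, 35.3% and 5.88% beside 9.56% and 6.52% of all genes, and the median log2 fold change was -0.24. CRIM1, a membrane protein that binds growth factors of the BMP family, fell from 58.4 and 59.3 CPM to 32.6 and 30.5 CPM (log2 fold change -0.90, SE 0.13, adjusted p = 0.00211). AXL, a receptor tyrosine kinase, went from 41.4 and 46.4 CPM to 21.3 and 30.2 CPM (-0.78, SE 0.17, adjusted p = 0.0145), and the RNA-binding protein gene RBMS3 from 20.3 and 19.2 CPM to 11.5 and 10.9 CPM (-0.81, SE 0.14, adjusted p = 0.00583). CCDC80 (-0.68, adjusted p = 0.0259), the guanine exchange factor DOCK5 (-0.46, adjusted p = 0.0317) and the clotting initiator F3 (-1.02, adjusted p = 0.0294) were the other falls. NT5E, the ectonucleotidase CD73, was the single rise, from 11 and 10 counts to 27 and 24 (1.33, SE 0.35, adjusted p = 0.0298). Under the DESeq2 Wald test F3 was not called (adjusted p = 0.202) and NT5E was given no adjusted p, and with library size alone NT5E missed the threshold (adjusted p = 0.0508).

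The targets thus went both ways, AMOTL2 and NT5E being called higher and CRIM1, AXL, RBMS3, CCDC80, DOCK5 and F3 lower. Among those not called were CCN1, CCN2 and LATS2, and from the list MYOF (log2 fold change -0.21) and GADD45A (0.39). Without control replicate 1 or control replicate 2, 2 of the 17 were called lower and 0 higher, CRIM1 with AXL in the first case and CRIM1 with RBMS3 in the second. When knockdown replicate 1 or knockdown replicate 2 was left out, more of the 17 were called in both directions, and so were more of all genes. No test of the list as a whole was made. The letters GGAATG or CATTCC stand in 5 of 13 promoter windows found for these genes (38.5%), beside 14% of all windows. Of the 5 called genes with a window AXL alone has a match, that is 1 of 6 windows (16.7%), near the share of all windows.

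Of the 4 further CCN genes, CCN3 and CCN5 were tested. CCN3 was lower, with 13.4 and 12.1 CPM in control cells and 5.77 and 6.48 CPM in knockdown cells (log2 fold change -1.06, SE 0.17, adjusted p = 0.00340), while CCN5 had 0.816 to 1.39 CPM in all libraries and an adjusted p of 0.518. CCN3 was called without any 1 of the 4 libraries. CCN4 had at most 1 count and CCN6 between 5 and 15. In control cells CCN3 had 7.29 and 5.82 TPM, beside 6.89 and 5.86 TPM for CCN1, so their ranges overlapped, and in knockdown cells 3.13 and 2.63 TPM beside 7.64 and 6.22.

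CCN1, CCN2 and ANKRD1 are also known targets of serum response factor, which works with the actin-sensing MRTF co-activators. Of 18 genes of that system 17 were tested, and 4 were called higher and 4 lower, 23.5% each beside 6.52% and 9.56% of all genes. The median of their log2 fold changes was -0.08. SRF itself rose from 48.1 and 56.1 CPM to 81.4 and 101 CPM (log2 fold change 0.81, SE 0.15, adjusted p = 0.00687), and the actin-binding protein genes TAGLN (0.83), CNN2 (0.62) and TPM2 (0.52) rose too. MRTFB fell from 91.4 and 85.4 CPM to 56.7 and 51.7 CPM (-0.70, SE 0.13, adjusted p = 0.00628), and ACTG1 (-0.79), ACTA2 (-0.96) and TPM1 (-0.63) were the other falls. ACTA2 was not called by the DESeq2 Wald test (adjusted p = 0.107). Without control replicate 1 none of these 8 genes was called, with SRF at 0.70 (adjusted p = 0.114), and without control replicate 2 SRF (adjusted p = 0.0123) and MRTFB (adjusted p = 0.0333) were. The part of this system in the values of CCN1, CCN2 and ANKRD1 was not tested.

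Across the 4 libraries the genes with the most similar centred log2 CPM profile were sought among 15792 genes whose log2 CPM averaged 1 or more. For AMOTL2 they were FLJ13224 (Euclidean distance 0.0233 on the log2 scale) and CCDC28A (0.0333), with log2 fold changes of 0.67 and 0.68. For CCN1 they were DPH7 (0.00998) and ZNF548 (0.0153). CCN2 had no comparably close neighbour, the nearest being CDKN1A (0.111), which shares its low value in knockdown replicate 1 (6.64 CPM) and high value in knockdown replicate 2 (13.9 CPM). With 4 points, such likeness is a description only.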

How the data were processed

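RNA-Seq counts of HGC-27 cells were analysed for 4 libraries, grouped by the submitters' labels. The authors trimmed bases below a quality score of 20, mapped reads to hg19 with STAR 2.7.5c and removed duplicates with SAMtools 1.9, which without molecular identifiers can compress changes of abundant genes. The authors deposited counts per gene, without normalization and, beside them, TPM, which is scaled to gene length and to a common total per library. Deposited FPKM values were not used. featureCounts is named in the submitters' processing notes, the strand setting is not given in the sources used here, and the labels name another library kit than the methods do. Of 63568 identifiers 55665 matched a symbol, and 1 symbol sought, PECAM1, matched none.

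Counts were compared with edgeR 4.0.16 in R 4.3.3 (TMM, filterByExpr, robust quasi-likelihood fit, Benjamini-Hochberg), a main test used in place of the DESeq2 of the methods, which was an alternative (DESeq2 1.42.0). SE was derived from the log2 fold change and the F statistic. The fit was tried on simulated counts, with a spread common to all genes and planted changes larger than most reported here. Recovery of smaller changes was not tried. Gene positions for overlaps came from GENCODE 44 on GRCh37 (CCN2 at chromosome 6, 132269316 to 132272512, AMOTL2 at chromosome 3, 134074189 to 134094321), and promoter windows from RefSeq on GRCh38.p14, whose coordinates were not mixed with them. The members and lists were chosen with earlier results of these data known, and the grouping of Hippo genes by role was written after their values were seen. Named genes were the members, USP47, 11 fixed Hippo genes, CCN3 to CCN6, up to 5 calls per direction of each list with the smallest p, and the 2 nearest genes of each tested target. PTPN14 was on both the Hippo and the target list, and genes named beyond this rule (PTPN14, CSNK1D, CSNK1E, BTRC, FAT4, WWC1, TNIK, MAP4K1, MYOF, GADD45A and DOCK5) were chosen after their values were seen.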

Additional observations from a re-analysis of the deposited data

How the results depend on the processing

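Alternatives were the DESeq2 Wald test, DESeq2 size factors, library size alone, no filter on low counts, at least 10 counts in every library, a replicate block, and leaving out each library in turn. With library size alone 0 members and 0 listed targets were called higher, beside 881 of 21932 genes, where the main fit had 1430. YAP1 was then at -0.029 and TEAD4 at -0.0623 on the log2 scale. With DESeq2, 0 listed targets were called higher, beside 1122 of 16533 genes, and TEAD1 (0.00249), MOB1A (0.0197) and AMOT (0.00441) changed sign. With size factors MOB1A was at 0.016 and AMOT at 0.000474. Without the filter 3 Hippo genes were called higher, beside 1008 of 41439 genes, and TEAD4 was at -0.0259. With at least 10 counts TEAD4 was at -0.0115. Same-numbered libraries share only a number, with no source for a pairing and a correlation of 0.213 between their deviations. With the replicate block the calls over all genes rose from 3527 to 7422, with 3530 higher and 3892 lower. Hippo genes called were then 11 higher and 11 lower, listed targets called higher were 3, and MOB1A was at 0.000147. Leaving out 1 library gave 0 to 2 members called higher and 0 to 1 lower, 0 to 11 Hippo genes higher and 3 to 14 lower, and 0 to 4 listed targets higher and 2 to 9 lower. Log2 fold changes then ran from -0.0709 to 0.0821 for TEAD4, -0.0238 to 0.242 for LATS1, -0.98 to 0.21 for CCN2, -0.23 to 0.14 for STK3, -0.0234 to 0.0197 for MOB1A, -0.268 to 0.0582 for MOB1B, -0.17 to 0.14 for AMOT and -0.274 to 0.0522 for AMOTL1. The TEAD1 to TEAD4 log2 ratio difference ran from -0.113 to 0.0626, that of LATS1 to LATS2 from -0.388 to 0.0441, that of YAP1 to WWTR1 from 0.105 to 0.373 and that of CCN1 to CCN2 from 0.086 to 1.16. The cause of these shifts was not tested. Depth limits CCN2 and ANKRD1, with at most 24 counts per library.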
